A study of Homo sapiens with 4 samples.

Results

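The 19q13.12 zinc finger cluster and its tandem arrays were taken as every region of H4K20me3 with its midpoint between 35.0 and 38.4 Mb of chromosome 19 on hg19. This interval of 3.4 Mb held 862 of the 57082 regions in all lists: 57 of 2836 in the PRO list, 517 of 35535 in the RS list and 288 of 18711 in the DiffBind list. The mark was mapped by ChIP-seq in IMR90, a human fetal lung fibroblast line that divides a limited number of times, either proliferating at population doubling 32 (PRO) or in replicative senescence, a lasting arrest reached after long culture, at population doubling 86 (RS). There were 2 samples a group, which differed in the antibody to H4K20me3, and all were of untreated cells of this single line. The PRO and RS lists hold the peaks that were found with both antibodies, and the DiffBind list holds regions called different between the groups, without the direction of the change. The lists give 1 position per region and no value per sample, height or depth, so the differences between lists have no replicate error and no test.

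H4K20me3 is the trimethylated form of lysine 20 on histone H4 and is placed by SUV420H enzymes, usually where H3K9me3 is already present. It marks compact chromatin at pericentromeres, telomeres and other repeated sequence. C2H2 zinc finger genes lie in clusters that arose by repeated tandem duplication, and many of the proteins they encode bind DNA through a row of fingers and silence transposable elements and genes by recruiting the corepressor TRIM28. Tandem arrays are head-to-tail copies of 1 unit, and satellite-like arrays of this kind are classical sites of silent chromatin.

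The results turn on 2 kinds of sequence, and both are repeated within the interval. The 2 wide PRO domains lie over tandem arrays of a unit of 2535 bp, here called array 1 and array 2. The stretch of 120 bases below is the part of the unit richest in CpG that aligned without gaps in a copy from array 1, from array 2, from a similar array on chromosome 4, from a diverged copy beside array 1 and from a more diverged copy in ZNF420. All are from GRCh37, which has the coordinates of hg19, and are written 5′ to 3′ in the orientation of array 1. Capitals mark the bases that differ from the array 1 copy.
Array 1, chr19:36782174-36782293, plus strand: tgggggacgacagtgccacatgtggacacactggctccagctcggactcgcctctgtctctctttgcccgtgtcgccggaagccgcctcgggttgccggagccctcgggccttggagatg
Array 2, chr19:37785702-37785821, minus strand: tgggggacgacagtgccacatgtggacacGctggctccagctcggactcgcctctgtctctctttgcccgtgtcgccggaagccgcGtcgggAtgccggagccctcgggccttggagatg
Chromosome 4 array, chr4:132648097-132648216, plus strand: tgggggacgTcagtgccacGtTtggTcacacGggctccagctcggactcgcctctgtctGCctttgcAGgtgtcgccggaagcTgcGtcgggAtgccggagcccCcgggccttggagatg
Copy beside array 1, chr19:36756957-36757076, plus strand: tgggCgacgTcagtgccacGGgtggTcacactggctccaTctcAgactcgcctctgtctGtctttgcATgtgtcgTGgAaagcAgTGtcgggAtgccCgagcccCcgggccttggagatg
Copy in ZNF420, chr19:37500410-37500529, plus strand: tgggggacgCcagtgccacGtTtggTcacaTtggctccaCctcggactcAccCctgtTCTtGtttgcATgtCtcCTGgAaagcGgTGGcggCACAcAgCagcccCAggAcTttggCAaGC
The array 2 stretch differed from that of array 1 at 3 bases, the chromosome 4 stretch at 13, the copy beside array 1 at 19 and the copy in ZNF420 at 37. The number of CpG in the stretch was 10 in array 1, 12 in array 2, 11 on chromosome 4, 8 beside array 1 and 5 in ZNF420. The stretch was picked for its CpG in the array 1 unit, so these counts do not compare whole copies. The stretches of array 1 and array 2 lay wholly in PRO and RS regions, that of chromosome 4 lay wholly in a PRO region and outside RS, the copy beside array 1 lay in no region of any list, and the copy in ZNF420 lay wholly in an RS region only.

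The other repeated sequence is the zinc finger itself, in which 2 cysteines and 2 histidines hold a zinc ion. The 34 zinc finger genes of the interval, by symbol, encode 462 fingers of the form C2H2, between 6 and 29 a gene with a median of 12.5, and in all 34 genes the fingers lie in the last exon of the longest coding transcript. With the 7 codons that follow it, a finger of the commonest spacing makes a repeat of 84 bases, and 442 fingers in all 34 genes gave such a repeat. The usual linker of threonine or serine, glycine, glutamate and lysine followed in 283 of them (64.0%). The consensus of these 442 repeats is given first, with the codons of the metal-binding cysteines and histidines in capitals, and then the first such finger of the zinc finger genes on either side of each array, of ZNF792 and of ZNF850, on the coding strand.
Consensus: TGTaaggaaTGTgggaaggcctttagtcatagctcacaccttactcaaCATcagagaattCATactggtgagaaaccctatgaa
ZNF565, chr19:36674280-36674363, minus strand: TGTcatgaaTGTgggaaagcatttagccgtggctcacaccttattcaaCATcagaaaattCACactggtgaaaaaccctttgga
ZFP14, chr19:36832125-36832208, minus strand: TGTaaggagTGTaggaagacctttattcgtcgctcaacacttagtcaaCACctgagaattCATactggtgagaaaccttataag
ZNF383, chr19:37733652-37733735, plus strand: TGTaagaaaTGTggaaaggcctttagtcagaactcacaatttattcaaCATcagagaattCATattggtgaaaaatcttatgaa
ZNF875, chr19:37853604-37853687, plus strand: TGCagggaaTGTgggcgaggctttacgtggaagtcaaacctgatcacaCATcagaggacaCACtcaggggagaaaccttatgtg
ZNF792, chr19:35450276-35450359, minus strand: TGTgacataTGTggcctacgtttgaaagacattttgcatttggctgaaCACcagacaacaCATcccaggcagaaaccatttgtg
ZNF850, chr19:37241264-37241347, minus strand: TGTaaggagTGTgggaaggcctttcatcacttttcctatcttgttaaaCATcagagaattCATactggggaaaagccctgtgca
A single finger matched the consensus at a median of 77.4% of its bases. The printed fingers differed from it at 11 bases in ZNF383, 13 in ZNF565, 15 in ZFP14, 18 in ZNF850, 29 in ZNF875 and 38 in ZNF792. The ZNF565 finger lay in no list and the ZNF875 finger in RS only. The fingers of ZFP14, ZNF383 and ZNF850 lay in both RS and DiffBind regions, and that of ZNF792 in PRO and RS regions. Exact repetition was rare in the fingers: 3.91% of the 75-base windows that start in finger-coding bases occurred again in the genome, against 95.1% in array 1 and 89.3% in array 2.

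In senescent cells the listed bases lay across the zinc finger blocks, and in proliferating cells most of the listed bases lay on the arrays. By number, 2 of the 57 PRO regions overlapped the arrays, and 50 of the other 55 lay in the distal block. PRO regions covered 122.7 kb of the interval, RS regions 797.9 kb and DiffBind regions 686.3 kb. The arrays themselves held 61.8% of the PRO bases, 9.26% of the RS bases and none of the DiffBind bases, and the whole regions that overlap them held 66.4% of the PRO and 9.35% of the RS bases. RS regions thus covered 6.51 times the length of PRO regions over the interval and 17.5 times without the regions over the arrays, beside 11.1 times over the whole lists. The interval makes up 0.11% of the main chromosomes and held 3.56% of all PRO bases, 2.09% of all RS bases and 1.98% of all DiffBind bases.

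The mark followed the zinc finger genes along most of the interval. A proximal block of 5 zinc finger genes from ZNF302 to ZNF792 (chr19:35168544-35455133) had 0.978% of its bases under PRO regions, 16.1% under RS regions and 17.0% under DiffBind regions. A distal block of 29 genes from ZNF565 to ZNF573 (chr19:36673178-38307940), which also holds the arrays, had 7.23% in PRO, 43.9% in RS and 37.5% in DiffBind. Between the blocks lie 1218 kb of genes of other kinds by symbol, with 0.033% in PRO, 1.05% in RS and 1.15% in DiffBind. Among them, ZBTB32 and OVOL3 encode 3 and 4 C2H2 fingers and met no region of any list.

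**Figure D1:**
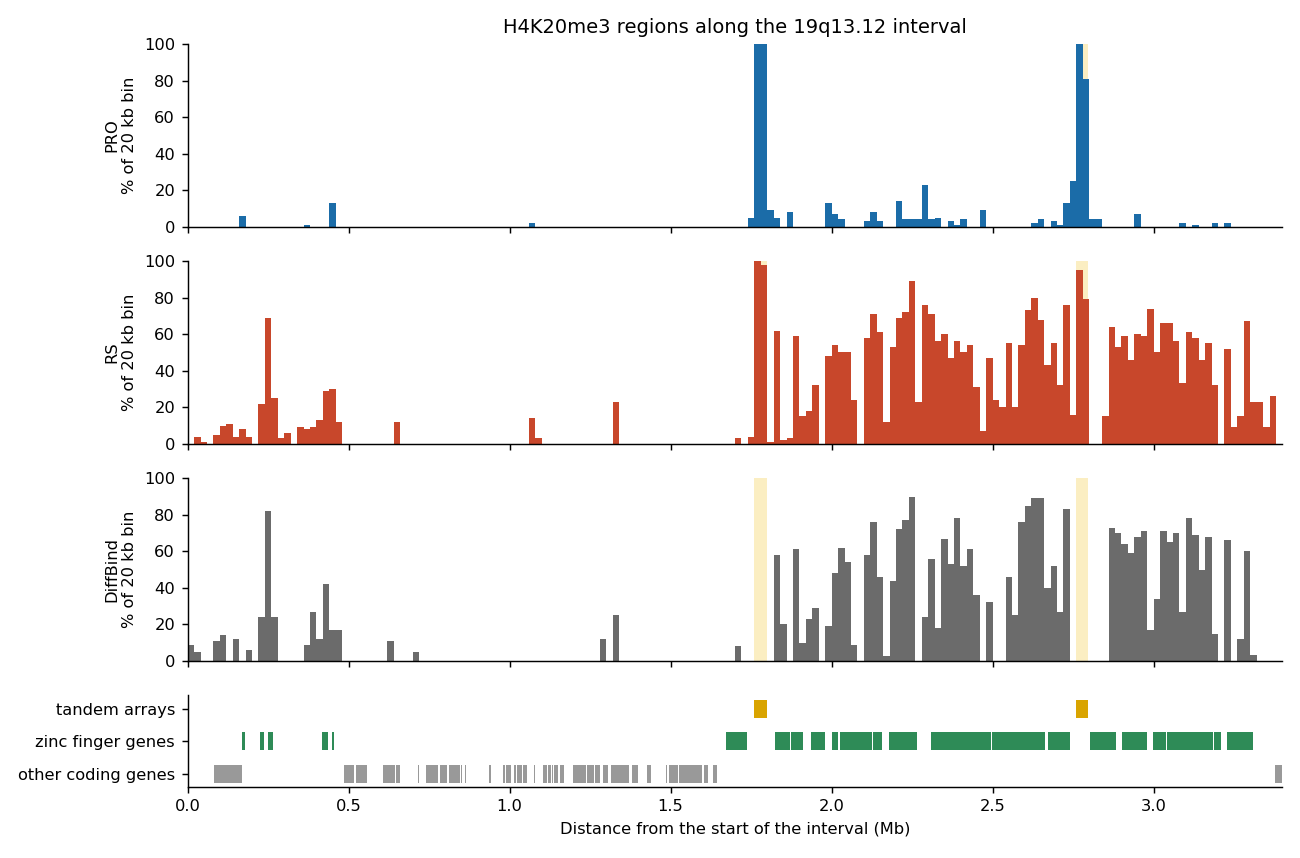
Share of each 20 kb bin covered by PRO, RS and DiffBind regions (y axes, percent) against the distance from the start of the interval in Mb, with the tandem arrays, zinc finger genes and other named coding genes drawn below. The pale bands are the arrays, where PRO and RS are high and DiffBind is 0, and RS and DiffBind otherwise rise over the zinc finger genes. RS also covers part of the end of the interval, past the last of these genes.

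The wide PRO domains were compared with the sequence under them. The domain at chr19:36759001-36801401 is 42401 bp long and covered array 1 (chr19:36759941-36800431, 40.5 kb), starting 940 bp before it and ending 970 bp after it. The domain at chr19:37757201-37796201 is 39001 bp long and covered array 2 (chr19:37759977-37795336, 35.4 kb), starting 2776 bp before it and ending 865 bp after it. The next longest PRO region of the interval had 2201 bp. The arrays were defined as the runs of copies under these domains, so their full PRO coverage is given by that choice, and only the distances between the bounds and the coverage by the other lists were free to vary.

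Array 1 holds 16 full copies of the unit on the plus strand, with identities to the chosen unit (chr19:36780201-36782735) of 98.1% to 99.8%. Array 2 holds 14 full copies on the opposite strand, 960 kb further along, with identities of 91.3% to 97.8%. The arrays are thus inverted relative to each other. The unit was taken from array 1, so these identities do not compare how alike the copies are within each array. Their GC content was 64.6% and 64.0%, against 46.1% over the interval, and they held 6.97 and 6.98 CpG per 100 bases, against 1.69. Array 1 overlaps the long non-coding RNA genes LINC00665 and ENSG00000267053, and array 2 overlaps the long non-coding RNA gene ENSG00000267605. Neither array overlaps a zinc finger gene.

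RS regions covered the arrays almost as fully as PRO regions did. In array 1, 98.4% of the bases lay in 2 RS regions of 27201 and 13401 bp, and in array 2, 96.2% lay in 3 RS regions of 8001, 6401 and 19601 bp. The breaks between neighbouring RS regions were 399 bp each. Of the 16 copies in array 1, 16 lay wholly in PRO and 14 wholly in RS, and of the 14 copies in array 2, 14 lay wholly in PRO and 9 wholly in RS. No DiffBind region touched either array. The nearest DiffBind regions ended 54.3 kb before and began 26.2 kb after array 1, and for array 2 the distances were 22.2 and 67.5 kb.

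The sequence beside the arrays was covered less. Before array 1 lie 4 diverged copies of the unit with 82.4% to 86.3% identity, of which 3 lay in no list and the copy that adjoins the array had 38.7% in PRO and 30.5% in RS. After array 2 lies 1 copy with 76.5% identity, with 46.1% in PRO and 43.2% in RS. Within ZNF420, which encodes a KRAB zinc finger protein known as a repressor of p53 targets, copies of 65.0% to 72.9% identity near the gene start lay partly or wholly in RS regions, with none in PRO or DiffBind. A group of 3 further copies in ZNF420, at chr19:37547023-37552156, lay wholly in RS and DiffBind and outside PRO. In all, 14 copies lay in the interval outside the arrays, and 11 of them touched an RS region, 4 a DiffBind region and 2 a PRO region. Within the interval, low identity to the unit moved with the absence of PRO. The unit and the arrays were chosen under PRO domains, so this is in part given by that choice. The part of identity in the result was not tested.

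**Figure D2:**
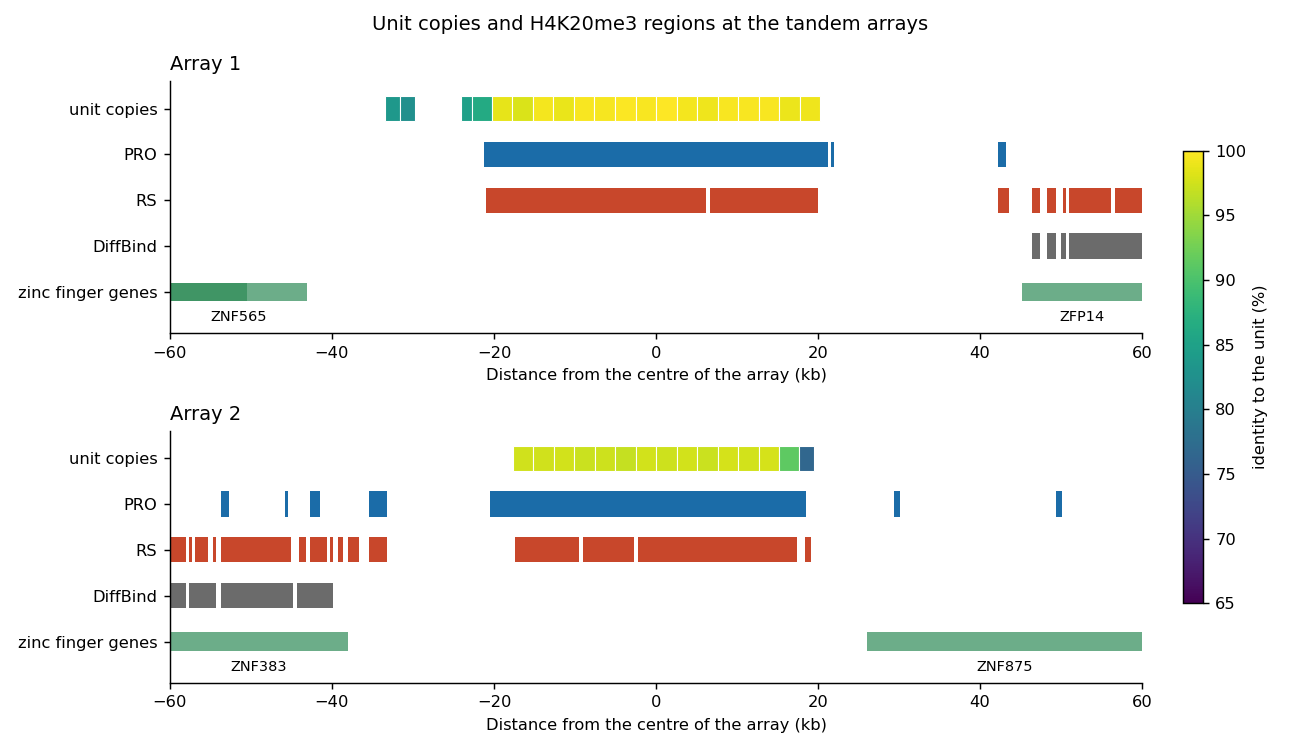
Unit copies shaded by percent identity to the unit, PRO, RS and DiffBind regions and zinc finger genes around each array, with the distance from the centre of the array in kb on the x axis. The PRO bar spans the bright copies in both panels, the DiffBind rows are empty there, and the flanking genes ZFP14 and ZNF383 carry RS and DiffBind regions.

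Outside the interval 116 further copies of the unit were found in the genome, in pieces of at least 500 bp, and 27 touched a PRO region, 64 an RS region and 29 a DiffBind region. In the interval and elsewhere together, 3 groups held at least 10 full copies: both arrays and the group at chr4:132644109-132685911. The chromosome 4 group holds 17 full copies with identities of 89.7% to 91.0%. All 17 touched a PRO region, so a single locus gave 17 of the 27 copies that did. Its span lay to 97.9% in PRO and to 10.1% in RS regions, and no DiffBind region touched it. A wide PRO domain was the reason for choosing array 1 and array 2, but not for the chromosome 4 group, which was found by its sequence. None of the 3 groups met a DiffBind region, and RS coverage was lower on chromosome 4, a difference that was not tested. Outside the interval, PRO did not go with identity alone. Of 21 copies there with at least 90% identity, 12 touched a PRO region, and all 12 were units of the chromosome 4 array. The rest of the 21 met no PRO region. Of 40 groups of copies apart from the arrays, 3 met PRO, the one on chromosome 4 and 2 on chromosome 9. Those at chr9:44990222-44998690 and chr9:67785711-67794203 had identities of 65.9% to 69.1% and lay to 56.7% and 65.9% in PRO.

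**Figure D3:**
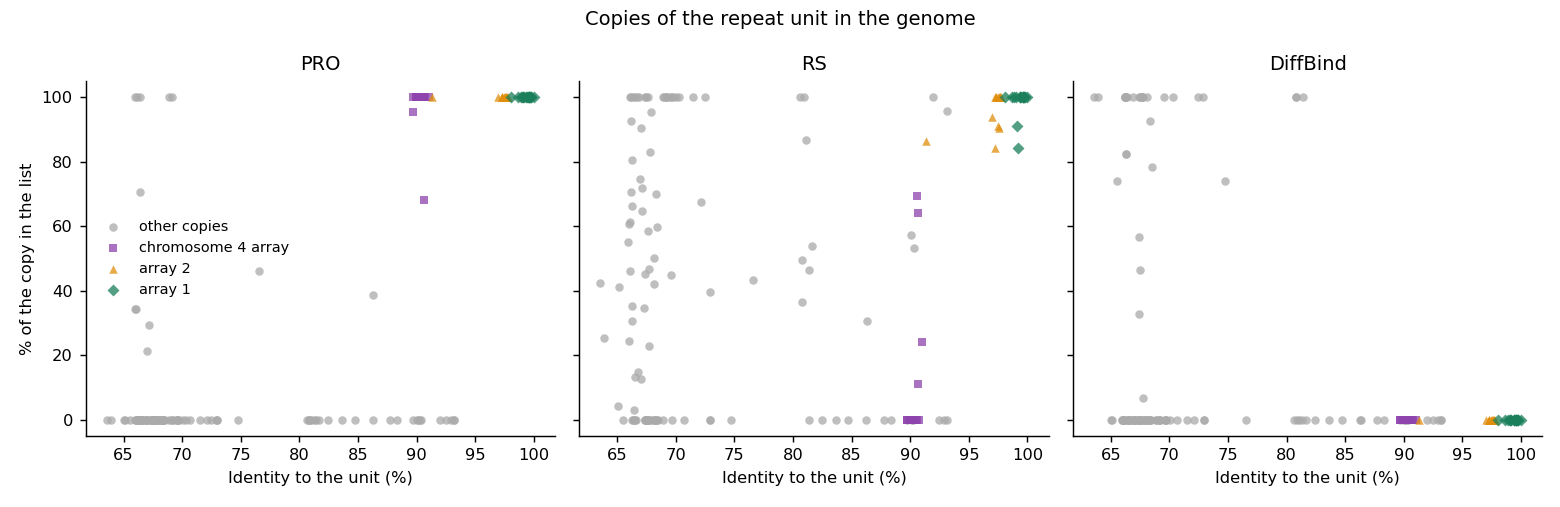
Percent of each copy of the unit that lay in each list (y axis) against the percent identity of the copy to the unit (x axis), with a point for each of the 160 copies in the genome. The copies of array 1, array 2 and the chromosome 4 array lie at 0 in DiffBind. In PRO they lie at or near the top, except a chromosome 4 copy at 68.0%. In RS the chromosome 4 copies lie below those of both arrays.

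Reads of the length used in the study can be placed at any of several copies within these arrays. A window of 75 bases from array 1 occurred again within the same array in 94.9% of cases, in array 2 in 41.7% and outside both arrays in 22.3%. For array 2 the shares were 88.5%, 33.7% in array 1 and 10.7%. How many reads lay on each copy is therefore not resolved, and the part of this in the width of the domains was not tested.

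The zinc finger genes beside the arrays differed from the arrays and from each other. ZNF565 (chr19:36673178-36737159) ends 22.8 kb before array 1 and had 0% of its body in PRO, 0.939% in RS and 2.50% in DiffBind. ZFP14 (chr19:36825355-36870103), 24.9 kb after array 1, had 0% in PRO, 25.5% in RS and 34.9% in DiffBind. ZNF383 (chr19:37708828-37739642), 20.3 kb before array 2, had 8.45% in PRO, 66.4% in RS and 71.4% in DiffBind. ZNF875, formerly HKR1 (chr19:37803739-37860267), 8.40 kb after array 2, had 2.83% in PRO, 5.31% in RS and 0% in DiffBind. So the arrays were marked in both states with no DiffBind region, ZFP14 and ZNF383 were marked in RS with DiffBind regions, and ZNF565 was almost free of the mark in both. ZNF146, which encodes a protein made of little besides fingers and lies inside ZNF565, had 0% in PRO and RS and 0.41% in DiffBind.

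All but 1 of the 34 zinc finger genes overlapped an RS region, which is 97.1%, where 21.0% of all 20163 coding genes did. PRO regions touched 20 of the 34 genes (58.8%), against 3.97% of all coding genes, and DiffBind regions touched 31 (91.2%), against 18.3%. The gene without an RS region was ZNF146, and the 3 without a DiffBind region were ZNF302, ZNF792 and ZNF875. The mean share of the gene body was 2.93% ± 5.91 in PRO, 43.8% ± 22.2 in RS and 43.6% ± 26.4 in DiffBind (SD over genes, n = 34). The genes share bases where their bodies overlap, as do ZNF567 and ZNF850, and are not replicates. Of the 34 genes, 17 had at least 50% of their body in RS.

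The genes with the highest RS shares lay in the distal block, apart from ZNF599. The mean RS share was 45.7% over the 29 genes of the distal block and 32.8% over the 5 of the proximal block. ZNF850, with 29 fingers (chr19:37205285-37263727), had 75.5% of its body in RS, 74.5% in DiffBind and 6.17% in PRO. ZNF599 of the proximal block (chr19:35248978-35264134) had 75.2% in RS, 84.0% in DiffBind and 0% in PRO. ZNF585A had 72.7% in RS, 85.4% in DiffBind and 1.82% in PRO, whereas its close paralogue ZNF585B had 48.7%, 46.5% and 2.20%. RS shares between 59.3% and 67.6% were seen in ZNF461, ZNF527, ZNF383, ZNF790, ZNF567, ZNF570 and ZNF571. Many of these shares rest on regions that hold some repeated sequence. Without the regions that hold any 75-base window found again in the genome, the RS share was 11.3% in ZNF850, 12.1% in ZNF585A and 0% in ZNF570. It was still 75.2% in ZNF599. A single such window removed a whole region, so these falls do not give the share of covered bases that is repeated. Over the 34 genes, 2.50% of intron windows and 3.91% of finger windows were repeated. The lowest shares after ZNF146 and ZNF565 were those of ZNF875 with 5.31%, ZNF302 with 9.14% and ZNF566 with 17.4%.

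The genes also differed in how far RS and DiffBind agreed. Across the 34 genes the RS share ran with the DiffBind share (Pearson r = 0.90, Spearman rho = 0.87), which is a description over genes that share bases and a source of peaks. ZNF790 stood off that line with 61.8% in RS and 35.4% in DiffBind, as did ZNF792 with 43.2% and 0%. The number of fingers was only weakly related to the RS share (r = 0.27, rho = 0.16), and gene length was not (r = 0.01, rho = -0.03).

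**Figure D4:**
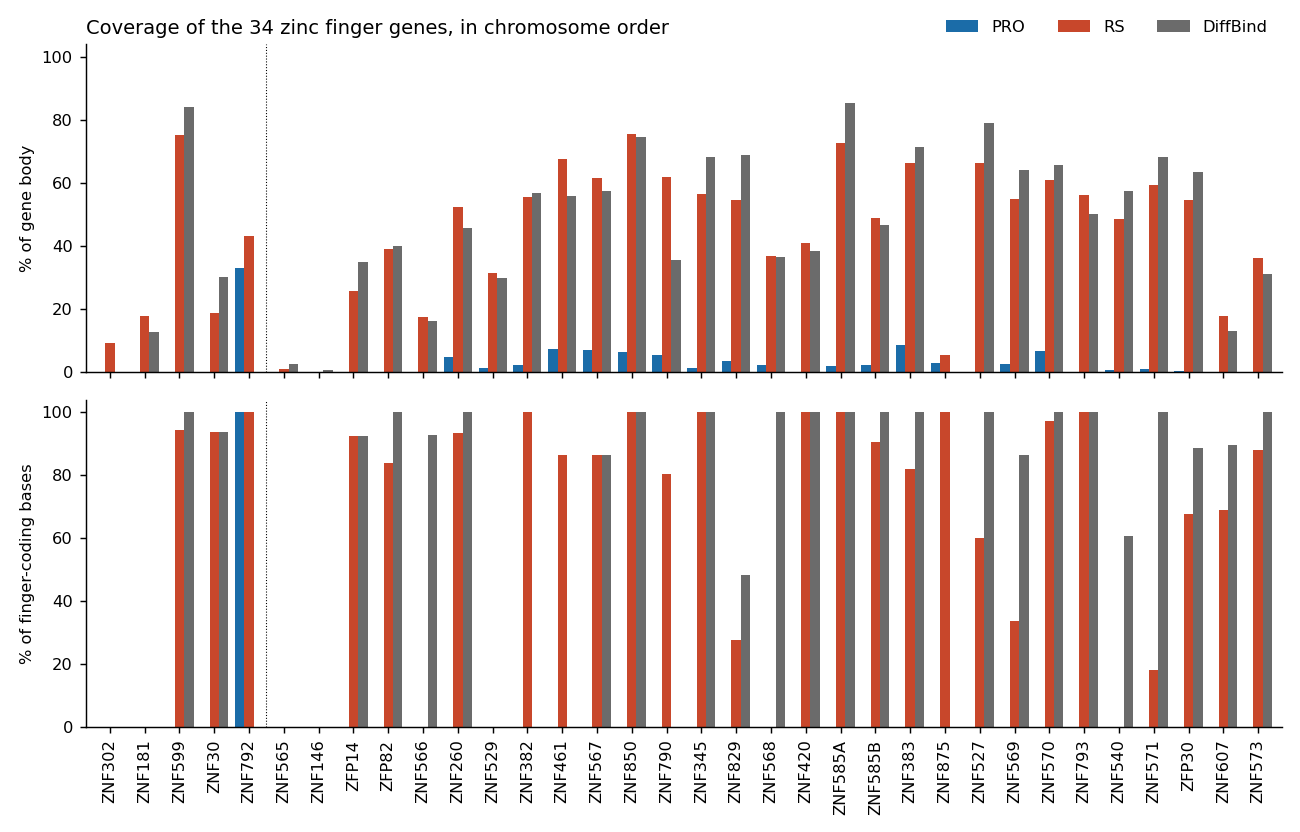
Percent of the gene body (top) and of the finger-coding bases (bottom) in PRO, RS and DiffBind regions for the 34 zinc finger genes in chromosome order, with a dotted line between the proximal and the distal block. RS and DiffBind bars stand side by side in most genes, PRO bars are low except in ZNF792, and ZNF565 and ZNF146 are nearly empty.

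Among the parts of these genes, the finger-coding bases were covered most in RS. Of 29.1 kb of finger-coding bases, 67.3% lay in RS and 72.6% in DiffBind regions, and 2.60% in PRO. Other coding bases had 51.7% in RS and 55.1% in DiffBind, 3′ untranslated bases 48.1% and 51.6%, and introns 43.9% and 47.1%. The 5′ untranslated bases had 28.4% and 20.0%. The 2 kb on either side of the gene start had 23.3% in RS and 12.0% in DiffBind, the lowest shares of the 6 kinds of sequence, but 5.23% in PRO, the highest. Around the first finger codon the mean RS coverage over the 34 genes was 54.1% between 5 and 1 kb before it, 34.2% in the last kilobase before it, 62.8% in the kilobase after it and 49.3% between 1 and 5 kb after it. The DiffBind coverage was 64.1%, 45.6%, 65.7% and 52.3% in the same stretches, so both lists had a narrow dip just before the fingers. These shares are of pooled bases over overlapping genes, and the differences between them were not tested.

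**Figure D5:**
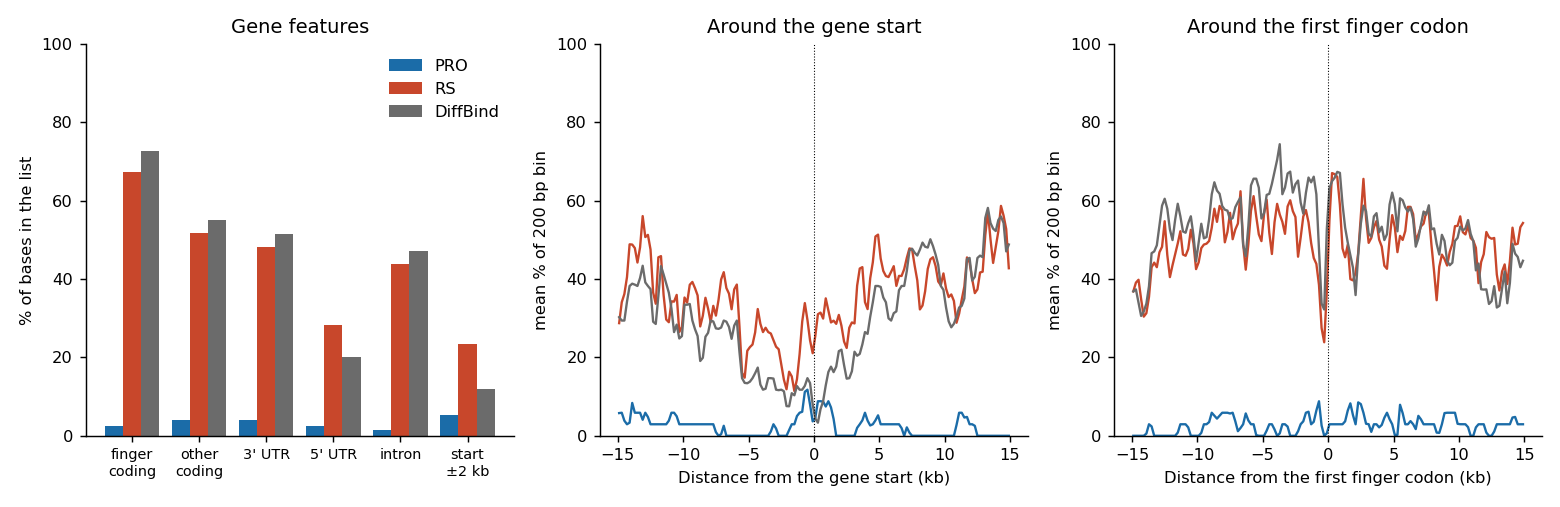
Percent of bases of each kind of sequence in the zinc finger genes covered by PRO, RS and DiffBind regions (left), and the mean percent of 200 bp bins covered around the gene start and around the first finger codon against distance in kb (middle and right). DiffBind is lowest at the gene start, where PRO has a small peak. RS is lowest upstream of the start, with 21.6% between 5 and 1 kb before it. In the kilobase after the start RS has 30.6%. RS and DiffBind both have a narrow dip just before the first finger codon with like levels on either side.

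Gene by gene the finger-coding bases fell into several classes. In 18 genes at least 50% of them lay in both RS and DiffBind regions, among them ZNF850, ZNF345, ZNF420, ZNF585A and ZNF793 with all of them in both. In 5 genes, ZNF792, ZNF382, ZNF461, ZNF790 and ZNF875, at least 50% lay in RS and none in DiffBind. In 3 genes, ZNF566, ZNF568 and ZNF540, none lay in RS and at least 50% in DiffBind. ZNF568, whose mouse counterpart represses a placental transcript of Igf2, had 100% of its finger bases in DiffBind and 36.8% of its body in RS. In 5 genes, ZNF302, ZNF181, ZNF565, ZNF146 and ZNF529, the finger bases lay in neither list. The other 3 genes, ZNF829, ZNF569 and ZNF571, had between 18.1% and 33.7% in RS.

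ZNF792 was the only zinc finger gene of the interval with finger-coding bases in PRO. A PRO region at chr19:35448401-35450401 covered 100% of its finger bases, together with another region PRO covered 33.0% of its body, and no DiffBind region touched the gene. A single RS region covered 43.2% of the body. In ZNF792 the pattern over the fingers thus resembled that over the arrays, present in PRO and RS and absent from DiffBind. No PRO region of ZNF792 held a 75-base window that occurs again in the genome.

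The 55 PRO regions outside the arrays were short, with a median of 601 bp, and 50 of them lay in the distal block. In all, 38 lay in a zinc finger gene, 7 lay within 2 kb of the start of a coding gene and 36 held a 75-base window that occurs again in the genome. The PRO share of the gene body, after ZNF792, was 8.45% in ZNF383, 7.29% in ZNF461, 6.99% in ZNF567, 6.65% in ZNF570, 6.17% in ZNF850, 5.41% in ZNF790 and 4.56% in ZNF260. It was between 0.26% and 3.53% in ZNF829, ZNF875, ZNF569, ZNF585B, ZNF382, ZNF568, ZNF585A, ZNF345, ZNF529, ZNF571, ZNF540 and ZFP30, and 0% in the other 14 zinc finger genes.

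PRO regions at gene starts were set beside those elsewhere. None of the 7 PRO regions within 2 kb of a coding gene start shared a base with a DiffBind region, and 25 of the other 50 did (50.0%, counting regions of 1 base and the array domains). Over the whole list 6.65% of PRO regions near a coding gene start did, so a count of 0 in 7 lies near that share. Of RS regions, 12 of 34 near a start met a DiffBind region (35.3%), beside 39.3% of such RS regions over the whole list, and 341 of the other 483 did (70.6%). Over the whole lists, at any position, 11.4% of PRO and 44.8% of RS regions met a DiffBind region. The gap between starts and the whole list was thus smaller there than the gap within the interval. The PRO regions near starts lay at the shared start of ZNF829 and ZNF568 (chr19:37406401-37407201), between the starts of ZNF569 and ZNF570 (chr19:37958601-37960001), upstream of ZFP14 (chr19:36870401-36872001), at ZNF571, at ZFP30, at the start shared by SCGB2B2 and ZNF302, and at the gene without a symbol ENSG00000267360. The one upstream of ZFP14 was in no RS region, and the other 6 each met an RS region. The difference between starts and other positions was not tested.

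The overlap between the lists is given beside that over the whole lists. Of the 57 PRO regions, 50 shared a base with an RS region (87.7%), against 54.8% of all PRO regions, and 25 with a DiffBind region (43.9%), against 11.4%. Of the 517 RS regions, 353 met a DiffBind region (68.3%), against 44.8%, and 51 met a PRO region (9.86%), against 3.84%. Of the 288 DiffBind regions, 265 met an RS region (92.0%), against 73.4%, and 21 a PRO region (7.29%), against 1.38%. The 7 PRO regions outside RS included those at chr19:37807001-37807801 and chr19:37827001-37827801 in ZNF875. The lists share the libraries from which they were made, so these shares are descriptions.

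The stretches between zinc finger genes of the distal block also carried the mark. The 18 stretches without a zinc finger gene add to 350.3 kb. The 2 stretches that hold the arrays had 55.8% in PRO, 52.8% in RS and 0% in DiffBind. The other 16 had 5.56% in PRO, 38.8% in RS and 21.2% in DiffBind, and 14 of them held an RS region. The stretch between ZNF850 and ZNF790 (chr19:37263728-37308329, 44.6 kb), which holds long non-coding RNA genes, had the most PRO regions of these 16, with 5 that covered 12.1%, and 15 RS regions covered 49.8%.

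The genes of other kinds were nearly free of the mark in all lists. Of 60 other named coding genes, 4 met an RS region (6.67%), 4 a DiffBind region and 1 a PRO region, beside 21.0%, 18.3% and 3.97% of all coding genes. The 4 with RS were FXYD5, a regulator of the sodium pump, with 15.8% of its body, NPHS1, which encodes nephrin of the kidney filter, with 10.5%, the secretoglobin gene SCGB2B2 with 7.87%, and WDR87 with 6.13%. SCGB2B2 was also the 1 gene with PRO, at 0.999% of its body. A list of 30 genes of other families had 2 with RS, FXYD5 and NPHS1, 1 with DiffBind and 0 with PRO. Within it, none of the 3 fatty acid receptor genes FFAR1, FFAR2 and FFAR3, of the 5 immune and glial genes, of the 2 respiratory chain genes or of the 8 broadly expressed or regulatory genes met a region of any list. LGI4 and PRODH2 met a DiffBind region, over 12.3% and 18.0% of the body, without an RS region. Of 6 coding genes without a symbol, 3 met all lists, and these overlap zinc finger genes.

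The same measures were set beside those of 3 other zinc finger clusters of chromosome 19. The mean RS share of a zinc finger gene body was 43.8% here (34 genes), 33.2% in 19p12 (36 genes), 36.6% in 19q13.41-q13.42 (40 genes) and 23.5% in 19q13.43 (66 genes). Over all bases the clusters were closer, with 23.5% in RS here, 23.1% in 19p12, 24.2% in 19q13.41-q13.42 and 15.8% in 19q13.43. The DiffBind shares of all bases were 20.2%, 16.5%, 20.3% and 11.1% in the same order. The share of all bases in PRO regions was 3.61% here, 0.768% in 19p12, 1.92% in 19q13.41-q13.42 and 2.76% in 19q13.43. Without the 2 array domains the PRO share here was 1.21% of the whole interval. The shares of 19q13.41-q13.42 and 19q13.43 were higher, but no region was left out there, so the values are not like for like. RS regions covered 6.51 times the PRO length here, or 17.5 times without the regions over the arrays. In the 3 other clusters, with all regions kept, the ratios were 30.1, 12.6 and 5.73. These differences were not tested.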

How the data were processed

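H4K20me3 ChIP-seq of 2 PRO and 2 RS samples of IMR90 cells was used as lists of regions deposited by the authors, whose values are positions in bases on hg19. Per the submitters' processing notes the tools were CASAVA 1.8.2, Trim Galore 0.3.0, Bowtie2 2.1.0, Picard 1.98, SICER 1.1 and DiffBind 1.8.3. The authors called domains against total histone H4 in 200 bp windows and intersected those of both antibodies, and named 2 different count models for DiffBind. The DiffBind list is smaller than the one in the study's text. Starts lay on the 200 bp grid and ends 1 base past it, and regions of 1 base (3 PRO, 5 RS, 0 DiffBind) were kept. Single-end reads and repeated sequence limit the assignment of reads to copies.

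Coordinates were matched to GRCh37 and GENCODE release 44 mapped to it. Overlap was counted from 1 base. Coverage used Python 3.11.15, NumPy 2.4.6 and pandas 2.3.3, and unit copies of at least 500 bp were found with blastn 2.17.0. The interval functions were tested on simulated regions. Arrays were the runs of copies with at least 90% identity under PRO regions of at least 20 kb. Fingers were matches in the longest coding sequence with 2 residues between the cysteines, 12 before the histidines and 3 to 5 between them. Named genes were every coding gene over a PRO region, the 10 highest and 5 lowest zinc finger genes by RS share, the zinc finger genes beside the arrays and the 5 other coding genes highest in RS, of which 4 had any. The members and lists were chosen with earlier results of these data known. Depth is not in the lists, and no test between groups was possible. The study reports read counts per library, with unlike shares of aligned and duplicate reads, which were not taken into account here.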

Additional observations from a re-analysis of the deposited data

How the results depend on the processing

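Of 125 summary values recomputed under an alternative, 95 moved by no more than 1.5 times or stayed within the 95% binomial interval (exact, over regions), and 30 moved further. Regions are not replicates, so that interval served as a yardstick only. Some values could not move, such as the DiffBind share of the arrays when regions were only removed. The PRO share of the arrays with bounds from the PRO regions could not move either. A further alternative left out each whole region that held even a single repeated 75-base window. This kept 19 PRO, 217 RS and 94 DiffBind regions, with 10.8, 206 and 135 kb and an RS to PRO length ratio of 19.02. Under it, 42.1% of PRO regions met RS, 41.0% of RS regions met DiffBind, 12 zinc finger genes met PRO, the mean body share was 1.42% in PRO, 14.7% in RS and 10.2% in DiffBind, finger bases lay to 37.4% in RS and 35.9% in DiffBind, and both arrays fell to 0% in PRO and RS, since every region over them holds such a window. Keeping regions of at least 1000 bp left 19 PRO and 285 RS regions, 8 zinc finger genes with PRO and a mean PRO body share of 1.63%, and 73.3% of RS regions met DiffBind. Merging regions within 1000 bp gave 201 RS and 109 DiffBind regions. Requiring 50% of both regions to overlap gave 35.1% of PRO regions over RS and 41.6% of RS regions over DiffBind. Without the regions over the arrays, an alternative chosen after seeing the data, PRO covered 41.3 kb and the ratio of RS to PRO length was 17.5. Leaving out regions of 1 base, counting any overlap with the interval, an interval that holds the distal block alone, genes with at least 3 fingers, gene bodies with 2 kb added, array bounds from the PRO regions and bases from the first to the last finger moved none of these values that far. Of a further 306 shares of single zinc finger gene bodies, 89 moved by over 1.5 times, among them 28 of 34 RS shares and 28 of 34 DiffBind shares without repeated windows. Leaving out each replicate was not run because each group has 1 merged list. No paired analysis was possible because the antibodies of a group were merged into 1 list before deposit.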
